A study of Mus musculus with 48 samples.

Results

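Transcripts of 7 Toll-like receptors (Tlr1, Tlr2, Tlr3, Tlr4, Tlr7, Tlr9 and Tlr13), of the lipopolysaccharide co-receptors Cd14 and Ly96, and of the adaptor Myd88 were followed in hippocampal microglia after whole-brain irradiation. The 10 genes were taken by name from the 48526 genes of the expression table, and all 10 passed the filter on low values described below. C57BL/6 mice received a single dose of 8 Gy X-rays to the brain, or a sham procedure, on postnatal day 21 and were killed 2 h, 6 h, 1 day or 1 week later. Cells were sorted from the perfused and dissected hippocampus by their expression of Cx3cr1, a chemokine receptor of microglia that monocytes and border macrophages also carry, and their RNA was sequenced in bulk. Each of the 8 groups held 6 animals, giving 48 libraries, so each time point had its own sham group. No transgene or gene deletion is named beyond the strain.

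Toll-like receptors are membrane proteins that recognise microbial and damage-associated molecules. Tlr1, Tlr2 and Tlr4 act at the cell surface, where Tlr2 pairs with Tlr1 or Tlr6 to bind lipoproteins, and Tlr4 binds lipopolysaccharide together with Ly96 (MD-2) after delivery by Cd14. Tlr3, Tlr7, Tlr9 and Tlr13 act in endosomes on double-stranded RNA, single-stranded RNA, unmethylated DNA and bacterial ribosomal RNA. All of these except Tlr3 signal through Myd88, which recruits IRAK kinases and leads to NF-kB, and microglia are the main cells of the brain parenchyma that carry the receptors.

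Microglial identity and depth were checked first. All 12 listed microglial markers were detected in every group, with a summed level of 26589 to 52039 RPM (reads per 1000000 reads on genes). With irradiation, 2 of the 12 were called lower at 2 h, where 4.02% of all genes tested were. At 6 h, 5 were called lower (8% of all genes) and 1 higher (12.9%). At 1 day 6 were called lower (1.39%), and at 1 week 1 lower (1.51%) and 2 higher (2.03%). The T cell markers Cd3e and Trbc2 and the neutrophil markers Ly6g and Retnlg had no read in any of the 8 groups. Other markers outside the microglial list had reads in all 48 libraries. Among them were Cd79b of the lymphocyte list (3920 reads in all) and Csf3r (49720) and Ccr2 (816) of the blood-cell list. Mrc1 of the perivascular macrophage list had 8737, and Mbp and Cnp of the oligodendrocyte list had 6156 and 8343. Cd79b, the only lymphocyte marker tested, was called lower at 2 h (log2 change -0.77). Libraries held 175382 to 3856777 reads on genes, with 3 below 1000000 (1 irradiated at 2 h, 1 sham at 6 h and 1 sham at 1 day). At 6 h, sham libraries 5 and 6 stood apart from sham libraries 1 to 4 in several members. Calls at 6 h among the members and the named pathway genes are therefore also given with those 2 libraries as the only shams. Calls of cell-type markers at 6 h, and the Tlr1 and Tlr2 differences from 2 h to 6 h, are given with all shams only. In bulk RNA, fewer cells of a type and less RNA per cell cannot be told apart.

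The 3 promoter windows below are shown because they belong to the pair of genes that rose at 2 h and to the shared adaptor that did not, and because each held a match to a motif searched. RefSeq promoter entries (GRCm38.p6) matched 6 of the 10 genes: Tlr1, Tlr2, Tlr3, Tlr9, Tlr13 and Myd88. The windows are read 5′ to 3′ along the gene, all 3 genes lie on the minus strand, bases inside annotated exons are left out, and capitals mark the motif. The Tlr2 window, chr3:83841768-83841858, held 2 overlapping matches to the NF-kB consensus 173 to 163 bases before the RefSeq start. That start lies inside the longer gene span of GENCODE, and 159 of the 250 bases searched were annotated Tlr2 exon.
Tlr2: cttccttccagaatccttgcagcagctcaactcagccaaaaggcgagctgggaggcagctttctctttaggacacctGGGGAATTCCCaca
The Tlr1 window, chr5:64933564-64933808, held the PU.1 core GAGGAAGT 23 to 16 bases before the start.
Tlr1: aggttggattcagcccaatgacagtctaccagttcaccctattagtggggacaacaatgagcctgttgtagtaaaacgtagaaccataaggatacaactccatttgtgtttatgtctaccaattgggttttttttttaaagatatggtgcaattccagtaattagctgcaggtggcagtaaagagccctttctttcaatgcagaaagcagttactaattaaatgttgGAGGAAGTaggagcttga
The Myd88 window, chr9:119340042-119340268, held the interferon response (ISRE) core, GAAA and GAAA with 2 free bases between them, 40 to 31 bases before the RefSeq start, and lies inside the longer gene span of GENCODE.
Myd88: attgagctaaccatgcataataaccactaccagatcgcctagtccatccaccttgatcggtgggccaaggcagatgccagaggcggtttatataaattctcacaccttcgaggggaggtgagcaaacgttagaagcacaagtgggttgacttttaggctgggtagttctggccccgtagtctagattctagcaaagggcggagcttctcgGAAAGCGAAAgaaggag
Both strands of the 250 bases before each start were searched. Of all 32851 RefSeq mouse promoters searched the same way, 3.9% held the NF-kB consensus, 2.44% the PU.1 core, 2.98% the interferon response core and 7.13% the p53 half-site. Tlr3 also held 1 NF-kB match, and no promoter entry of the 6 genes held the p53 half-site. A second entry of Tlr1, chr5:64932700-64932949, held none of the motifs. These are letter matches, not sites shown to be bound.

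To compare genes with each other, reads were divided by merged exon length, giving reads per kilobase of exon scaled to the library's reads on genes (exon RPKM). Cd14 was the most abundant of the 10, with a median of 382 exon RPKM over the 24 sham libraries. Tlr13 followed at 111, Myd88 at 81.7, Tlr7 at 73.6 and Tlr2 at 55.3. Tlr9 was at 26.7, Tlr4 at 18.3, Tlr1 at 17.0, Ly96 at 13.5 and Tlr3 at 7.17. The order was not firm throughout: Myd88 exceeded Tlr7 in only 13 of the 24 sham libraries, Tlr4 exceeded Tlr1 in 15, and Tlr1 exceeded Ly96 in 15, so these neighbours were not separated by their spread. Tlr2 exceeded Tlr9 in 24 of 24 libraries, and the remaining neighbours kept their order in 19 to 21. Counting was sparse for Ly96 and Tlr3, each with as few as 2 reads in a library.

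All values below are RPKM over the gene span, introns included, the length with which the deposited table was made; they compare a gene with itself across libraries and not with other genes. Changes are differences of log2(RPKM + 1) between irradiated and sham groups with their standard error (SE), from 1 limma model over all 48 libraries and 10132 genes. A change was called at a Benjamini-Hochberg adjusted p under 0.05 over all genes tested. The level of each gene in every library is plotted first.

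**Figure D1:**
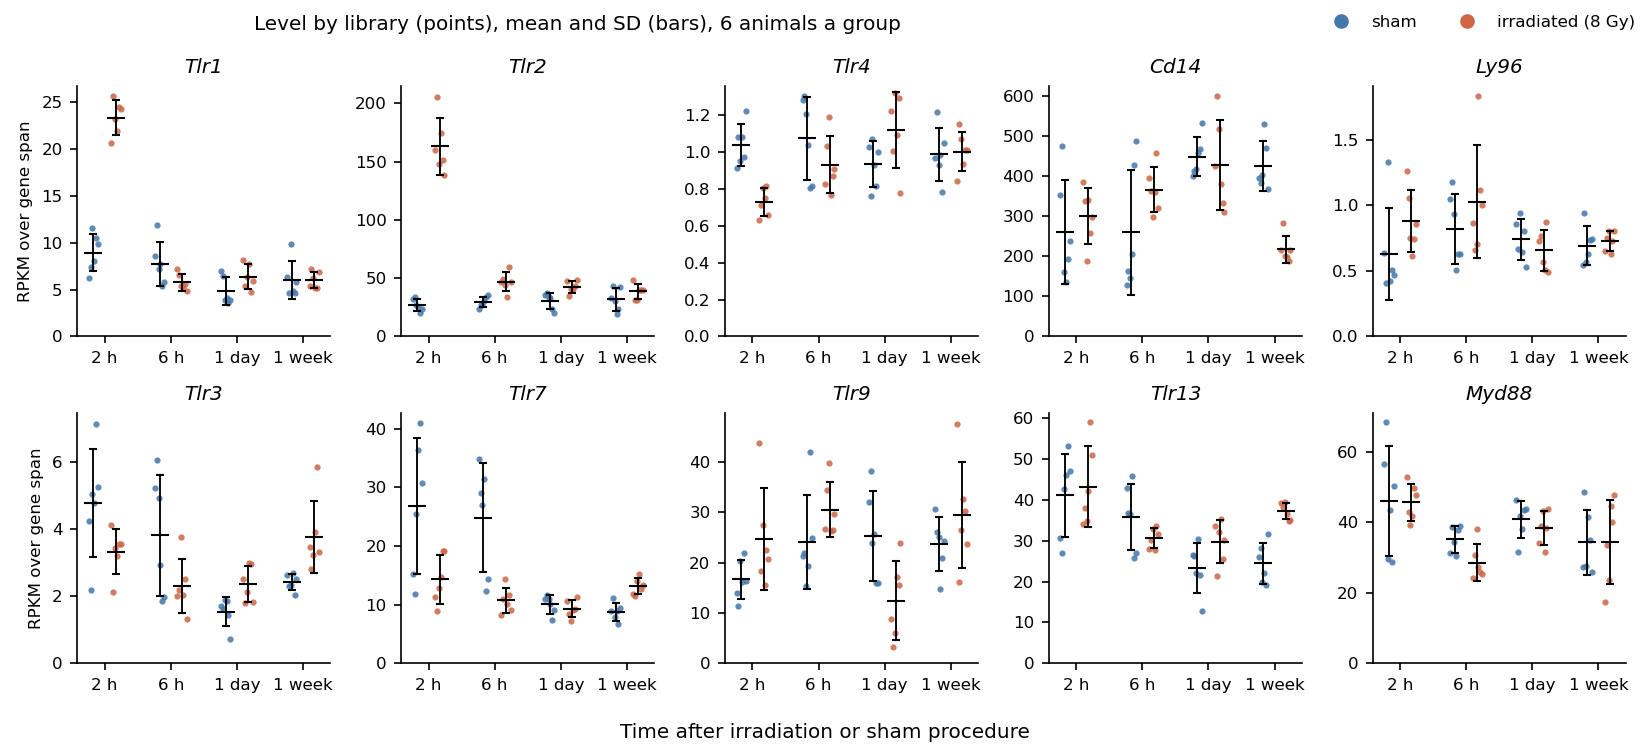
RPKM over the gene span (vertical axis, linear, own scale for each gene) of the 10 genes by time after irradiation or sham procedure. Points are libraries, blue sham and orange irradiated, and black bars show the mean and SD of 6 animals; the irradiated points of Tlr1 and Tlr2 at 2 h lie apart from all their other groups.

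Among the surface receptors, Tlr2 and its partner Tlr1 rose at 2 h. Tlr2 lies on chromosome 3 (83836272 to 83841767, minus strand, GRCm38). In sham animals at 2 h the lowest, median and highest Tlr2 levels were 20.1, 26.1 and 33.4 RPKM, and in irradiated animals 138, 155 and 206 RPKM. The groups did not overlap, and every irradiated library was also above every Tlr2 value of the other 7 groups. The mean went from 27.0 ± 5.08 to 163 ± 24.2 RPKM (SD, n = 6 each), 6.03-fold, a log2 change of 2.56 ± 0.16 (SE) with an adjusted p of 2.43e-16. By size of increase Tlr2 ranked 29 among the 10132 genes tested at 2 h.

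Tlr1, on chromosome 5 (64924679 to 64933563, minus strand), showed the same direction with a smaller size. Its sham levels at 2 h had a lowest, median and highest value of 6.28, 8.98 and 11.5 RPKM, against 20.6, 23.7 and 25.6 RPKM after irradiation. Again no irradiated library fell within the sham range. The means were 8.94 ± 2.00 and 23.3 ± 1.83 RPKM (SD, n = 6 each), 2.61-fold, a log2 change of 1.31 ± 0.16 with an adjusted p of 6.96e-08. Tlr1 shares 13.6% of its exonic 50-base words with Tlr6, its neighbouring paralog, so reads in that stretch could be split between them; Tlr6 itself measured 16.9 ± 7.37 RPKM in sham and 19.4 ± 5.96 RPKM in irradiated animals at 2 h and was not called (log2 change 0.25, adjusted p = 0.607).

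Tlr4, the lipopolysaccharide receptor, did not share the increase. It is a long gene on chromosome 4 (66827584 to 66930284, plus strand), and its level per span was correspondingly low. At 2 h sham libraries ranged from 0.912 to 1.22 RPKM with a median of 1.02, and irradiated libraries from 0.632 to 0.814 with a median of 0.732. The groups did not overlap, and Tlr4 fell by 0.23 ± 0.07 on the log2(RPKM + 1) scale (adjusted p = 0.0373), a ratio of means of 0.704. With a pseudocount of 0.1 the log2 change was -0.45. This call was lost under 5 of the 11 alternatives, with adjusted p-values of 0.0551 to 1 among those, and among them was the scaling without mitochondrial reads (log2 change -0.21, adjusted p = 0.0863). The mitochondrial share of reads at 2 h was 6.14% to 14.6% in irradiated and 3.05% to 9.34% in sham libraries.

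The co-receptors moved differently from Tlr2 at 2 h. Cd14 (chromosome 18, minus strand) spanned 137 to 474 RPKM in sham animals (median 216) and 188 to 384 RPKM in irradiated animals (median 318). The sham range enclosed the irradiated one, and the log2 change of 0.32 ± 0.25 was not called (adjusted p = 0.551). Ly96 (chromosome 1, 16688051 to 16709611, plus strand) had a median of 0.490 RPKM in sham and 0.803 RPKM in irradiated animals, with ranges of 0.405 to 1.33 and 0.612 to 1.26 that overlapped (log2 change 0.22, adjusted p = 0.289).

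Of the endosomal receptors, Tlr7 (X chromosome, 167304929 to 167330558, minus strand), which binds single-stranded RNA, was the only one called at 2 h. Its sham libraries had a lowest, median and highest level of 11.8, 28.1 and 41.0 RPKM, and its irradiated libraries 8.97, 13.8 and 19.2 RPKM. The ranges overlapped because sham libraries 1 and 2, at 15.2 and 11.8 RPKM, lay within the irradiated range. Tlr7 fell by 0.78 ± 0.22 on the log2 scale (adjusted p = 0.0199), and without the 3 libraries under 1000000 reads the adjusted p was 0.0704. Tlr3, Tlr9 and Tlr13 had log2 changes of -0.38, 0.49 and 0.08 and were not called. Myd88 measured 46.2 ± 15.6 RPKM in sham and 45.7 ± 5.21 RPKM in irradiated animals (SD, n = 6 each), a log2 change of 0.05 with a 95% interval of -0.33 to 0.43.

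In all, 2 of the 10 genes were higher and 2 lower at 2 h; over all genes tested, 4.6% were called higher and 4.02% lower. Groups without overlap were found for 2 genes upward (2.47% of all genes) and 1 downward (2.03% of all genes). The median log2 change was 0.15 over the 10 genes and -0.01 over all genes. The blood-cell list of 12 markers reached 274 to 3075 RPM in irradiated and 213 to 444 in sham libraries at 2 h. The highest of these came from irradiated library 2, with 2734 RPM of fibronectin (Fn1), while Ly6c2, S100a9, Ly6g, Ngp and Retnlg were at 0 in both groups. Without the 3 shallow libraries, which include that one, Tlr2 and Tlr1 kept log2 changes of 2.49 and 1.29 and were called.

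**Figure D2:**
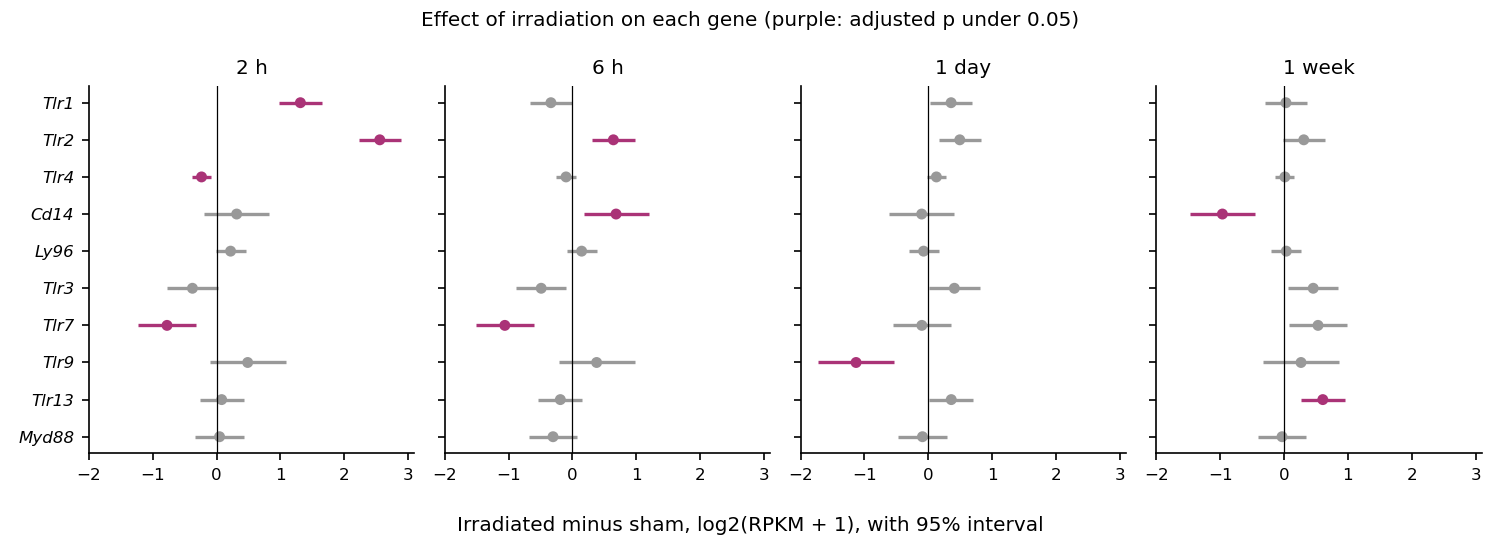
Difference of irradiated from sham animals in log2(RPKM + 1) (horizontal axis) for each gene at each time, with points for the estimate and lines for its 95% interval. Purple marks an adjusted p under 0.05: 4 genes at 2 h, 3 at 6 h, 1 at 1 day and 2 at 1 week, with Tlr2 at 2 h farthest from 0 at 2.56.

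At 6 h Tlr1 was no longer called and the effect on Tlr2 was smaller than at 2 h. Tlr1 was at 5.79 ± 0.898 RPKM in irradiated and 7.75 ± 2.33 RPKM in sham animals (SD, n = 6 each), a log2 change of -0.34 that was not called (adjusted p = 0.144). From 2 h to 6 h the irradiation effect on Tlr1 dropped by 1.65 on the log2 scale (SE 0.23, adjusted p = 4.79e-06). For Tlr2 the effect dropped by 1.92 (SE 0.23, adjusted p = 1.8e-07). These were the only 2 of the 10 genes whose effect changed from 2 h to 6 h, both downward, where 3.72% of all genes were called lower and 5.56% higher.

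Tlr2 was still above sham at 6 h in the fit with all libraries. Sham libraries had a lowest, median and highest level of 23.3, 28.8 and 35.7 RPKM, and irradiated libraries 34.1, 46.8 and 59.6 RPKM. The ranges met only at their edges, and all 6 irradiated libraries were above the sham median. The log2 change was 0.64 ± 0.16 (adjusted p = 0.0038). Against sham libraries 5 and 6 alone, at 33.7 and 35.7 RPKM, it was 0.40 and not called (adjusted p = 0.636).

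Tlr7 and Cd14 were the members most touched by the split among sham libraries. Tlr7 ranged from 27.0 to 34.8 RPKM in sham libraries 1 to 4 and was 12.3 and 14.3 RPKM in libraries 5 and 6, against 8.28 to 14.3 RPKM after irradiation. Cd14 went the other way, with 127 to 206 RPKM in sham libraries 1 to 4, 429 and 487 RPKM in libraries 5 and 6, and 297 to 457 RPKM after irradiation. For both genes the irradiated libraries lay near sham libraries 5 and 6 and clear of the other 4.

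With all shams, Tlr7 fell by 1.06 ± 0.22 at 6 h (adjusted p = 0.0005). With libraries 5 and 6 as the only shams, the change was -0.30 ± 0.28 and was not called (adjusted p = 0.881). Cd14 rose by 0.68 ± 0.25 with all shams (adjusted p = 0.0466), and this turned to -0.33 ± 0.28 with the 2 libraries alone (adjusted p = 0.852). Sham libraries 1 to 4 had 5.88% to 7.11% of reads on mitochondrial genes and libraries 5 and 6 had 3.09% and 3.27%, beside 2.35% to 4.34% after irradiation. The summed microglial markers were 34731 to 38779 RPM after irradiation and 43106 to 48920 RPM in sham animals at 6 h, without overlap. The 8 perivascular macrophage markers summed to 41.1 to 82.4 RPM and 108 to 173 RPM, also without overlap. Of the tested markers outside the microglial list, Csf3r of the blood-cell list (log2 change 0.72, adjusted p = 0.0004) and the astrocyte marker Aldoc (0.70, adjusted p = 0.0266) were higher at 6 h with all shams. Of all genes, 12.9% were called higher. Among 3 tested perivascular macrophage markers 1 was called lower, where 8% of all genes were. The part of these shares and markers in the 6 h values was not tested.

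**Figure D3:**
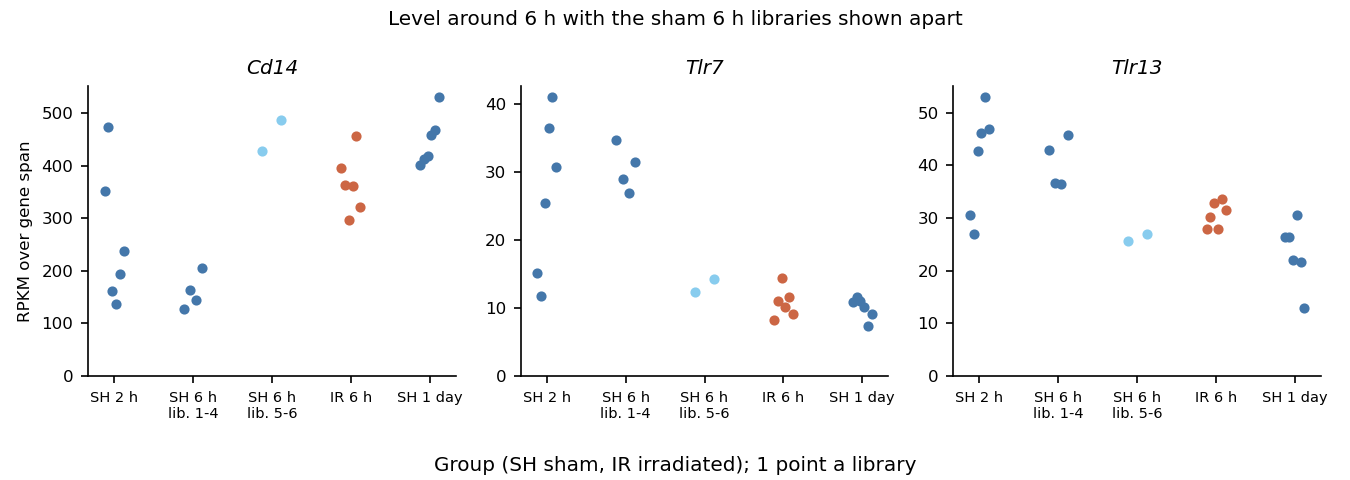
RPKM over the gene span (vertical axis) of Cd14, Tlr7 and Tlr13 by library in sham animals at 2 h, sham animals at 6 h split into libraries 1 to 4 and 5 to 6, irradiated animals at 6 h and sham animals at 1 day. Sham libraries 5 and 6 at 6 h lie near the 1 day shams, with Cd14 at 429 and 487 RPKM, and sham libraries 1 to 4 near most of the 2 h shams.

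Among the other genes at 6 h, Tlr3 (chromosome 8, 45395665 to 45411080, minus strand), which binds double-stranded RNA, missed the threshold (log2 change -0.49, adjusted p = 0.0687), with 2.93 to 6.06 RPKM in sham libraries 1 to 4, 1.85 and 1.98 RPKM in libraries 5 and 6, and 1.33 to 3.77 RPKM after irradiation. Tlr13 followed the same split, with 36.5 to 45.7 RPKM, 25.7 and 27.0 RPKM, and 27.8 to 33.5 RPKM. Tlr9, Tlr4 and Ly96 had log2 changes of 0.38, -0.10 and 0.15 and were not called. Myd88 was at 28.6 ± 5.17 RPKM in irradiated and 35.3 ± 3.84 RPKM in sham animals, a log2 change of -0.30 with a 95% interval of -0.68 to 0.08. With all shams 2 of the 10 genes were higher and 1 lower, against 12.9% and 8% of all genes. The irradiated and sham ranges of all 10 genes overlapped at 6 h, where 4.96% of all genes were separated upward and 2.88% downward. With sham libraries 5 and 6 alone none was called in either direction, against 1.56% and 0.533% of all genes.

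At 1 day the call moved to Tlr9, the endosomal DNA receptor (chromosome 9, 106222598 to 106226883, plus strand). Sham libraries had a lowest, median and highest level of 16, 24.8 and 38.3 RPKM, and irradiated libraries 3.34, 12.3 and 24 RPKM. The ranges overlapped, and none of the 6 irradiated libraries reached the sham median. Irradiated libraries 1 to 3, at 8.89, 3.34 and 5.97 RPKM, stood apart from libraries 4 to 6, at 17.1, 15.7 and 24 RPKM. Tlr9 fell by 1.13 ± 0.29 on the log2 scale (adjusted p = 0.0144), a ratio of means of 0.494. In a fit of the 12 libraries of that time alone the adjusted p was 0.214. The microglial marker sum at 1 day had a median of 33399 RPM in irradiated and 46420 RPM in sham animals. The blood-cell list without Csf3r and Fn1 had a median of 47.5 RPM in irradiated and 19.0 RPM in sham animals, and its member Plac8 was called higher (log2 change 0.79, adjusted p = 0.0156). The part of these markers in the Tlr9 value was not tested.

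The effect on Tlr9 at 1 day differed from those before and after it. From 6 h to 1 day its irradiation effect dropped by 1.51 (SE 0.42, adjusted p = 0.0275), and from 1 day to 1 week it increased by 1.40 (SE 0.42, adjusted p = 0.0385). At 1 week it measured 29.5 ± 10.6 RPKM in irradiated and 23.7 ± 5.38 RPKM in sham animals (SD, n = 6 each), and was not called (adjusted p = 0.697). For these 2 differences 2.67% of all genes were called lower from 6 h to 1 day (1.71% higher, none of them a member) and 2.54% higher from 1 day to 1 week. With sham libraries 5 and 6 as the only 6 h shams, the first difference was -1.03 and was not called (adjusted p = 0.670).

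Tlr9 was the single member called at 1 day, where 1.39% of all genes were called lower and 2.9% higher. None of the 10 genes had groups without overlap, against 2.29% of all genes upward and 0.691% downward. Tlr2 had a median of 33.4 RPKM in sham and 41.9 RPKM in irradiated animals, and all 6 irradiated libraries exceeded the sham median. Its log2 change of 0.49 ± 0.16 missed the threshold (adjusted p = 0.0807), and passed it with median-ratio scaling (0.51, adjusted p = 0.0472). Tlr1, Tlr3 and Tlr13 had log2 changes of 0.36, 0.41 and 0.36, each with an adjusted p above the threshold. Tlr7, Cd14, Ly96 and Myd88 lay between -0.10 and -0.07.

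At 1 week Cd14 was lower after irradiation. In sham animals its lowest, median and highest levels were 367, 399 and 531 RPKM, and in irradiated animals 189, 208 and 283 RPKM. The groups did not overlap, although at the earlier times irradiated Cd14 medians had been between 318 and 402 RPKM. The mean went from 425 ± 63.2 to 217 ± 34.0 RPKM (SD, n = 6 each), a log2 change of -0.97 ± 0.25 (adjusted p = 0.0230). Among the 10132 genes it ranked 140 by size of decrease.

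Tlr13, the receptor for bacterial ribosomal RNA (X chromosome, 106143204 to 106160493, plus strand), was higher at 1 week. Sham libraries had a lowest, median and highest level of 19.2, 24 and 31.7 RPKM, and irradiated libraries 34.9, 37.4 and 39.5 RPKM. The groups did not overlap. The log2 change was 0.61 ± 0.17 (adjusted p = 0.0347), 1.52-fold in means. Tlr13 and Cd14 were both called with totals that leave out mitochondrial reads, whose share at 1 week was 2.56% to 4.38% in irradiated and 1.42% to 2.36% in sham libraries. With no filter on low values, where 27654 genes were tested, both missed the threshold (adjusted p of 0.0512 for Cd14 and 0.0724 for Tlr13).

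The RNA receptors Tlr7 and Tlr3 also lay above sham at 1 week without overlap but were not called over all genes. Tlr7 was 6.66 to 11.1 RPKM in sham and 11.6 to 15.2 RPKM in irradiated animals, a log2 change of 0.53 ± 0.22 (adjusted p = 0.190). Tlr3 was 2.05 to 2.69 RPKM in sham and 2.83 to 5.86 RPKM in irradiated animals, a log2 change of 0.46 ± 0.20 (adjusted p = 0.197). Upward separation was thus seen in 3 of the 10 genes, all endosomal RNA receptors, where 2.06% of all genes showed it, and downward separation in Cd14 alone, where 1.12% did. Called were 1 gene higher and 1 lower, beside 2.03% and 1.51% of all genes. Without irradiation, Tlr3, Tlr7 and Tlr13 were also higher, and Cd14 lower, in sham libraries 1 to 4 than in 5 and 6 at 6 h. The mitochondrial share was higher in those libraries 1 to 4, and at 1 week in the irradiated libraries. The microglial marker sum at 1 week had a median of 45542 RPM in irradiated and 42856 RPM in sham animals. A list of 6 neuron markers reached 365 RPM in irradiated (median 2.06) and 6.27 RPM in sham libraries (median 1.71) at 1 week. The part of these in the 1 week values was not tested.

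The remaining genes were not called at 1 week. Tlr1, Tlr4, Ly96 and Myd88 had log2 changes of 0.03, 0.01, 0.03 and -0.03, and Tlr2 of 0.31 (adjusted p = 0.317). Myd88 had log2 changes of 0.05, -0.30, -0.09 and -0.03 at the 4 times and passed the threshold at none, nor did Ly96. Part of the Myd88 gene (chromosome 9, 119335934 to 119341411, minus strand) overlaps Acaa1a on the opposite strand, and 7.42% of its exonic 50-base words lie there; whether counting used strand is not given in the sources used here.

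In sham animals 5 of the 10 genes differed between the 4 times (Tlr1, Tlr3, Tlr7, Tlr13 and Cd14), where 21.1% of all genes did. Tlr7 was the clearest (adjusted p = 2.98e-06), with sham medians of 28.1, 28.0, 10.6 and 8.92 RPKM at 2 h, 6 h, 1 day and 1 week. Tlr13 went from a median of 44.4 RPKM at 2 h to 24 RPKM at 1 week (adjusted p = 0.0006). Cd14 went the opposite way, from 216 RPKM at 2 h to 438 at 1 day and 399 at 1 week (adjusted p = 0.0018). Tlr2, Tlr4, Tlr9, Ly96 and Myd88 were not called, and all 5 calls were also made with sham libraries 5 and 6 as the only 6 h shams. In sham animals at 2 h, the libraries high in Cd14 (1 and 2, at 352 and 474 RPKM) were those low in Tlr7.

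Genes whose irradiation effects lay closest to those of a member over the 4 times were taken from 2643 genes, by the root mean square difference of the 4 log2 changes. For Tlr2 they were Nfkb2, a subunit of NF-kB, at a difference of 0.30, then Clec2d, H2-Q6, Relb and Cdc34. For Cd14 they were Rab8a, a vesicle-traffic GTPase, at 0.14, then Mrfap1, Xab2, Ubxn1 and Paqr4, and for Myd88 they were Son, Trim28, Copb2, Tmpo and Pak2. The likeness is over 4 values from the same libraries and is given as a description. The 6 h effects used were those with all shams. For Cd14 that effect was 0.68 and turned to -0.33 with sham libraries 5 and 6 alone. For Tlr2 it went from 0.64 to 0.40, whereas its neighbours Nfkb2 and Relb went from 0.31 to 0.88 and from 0.17 to 0.75.

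**Figure D4:**
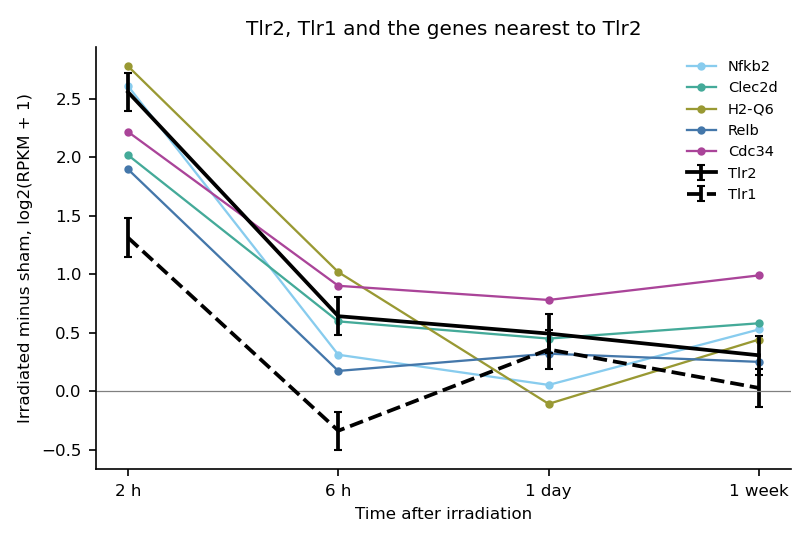
Difference of irradiated from sham animals in log2(RPKM + 1) (vertical axis) at the 4 times (horizontal axis, not to scale) for Tlr2 and Tlr1 (black, bars show the SE) and the 5 genes nearest to Tlr2. Nfkb2, Relb, Clec2d, H2-Q6 and Cdc34 share the high value at 2 h and lower values from 6 h, whereas Tlr1 lies below 0 at 6 h. The 6 h values are those with all shams.

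The rest of the pathway was read from lists of its other genes. Their counts stand beside the shares of all genes called higher, 4.6%, 12.9%, 2.9% and 2.03% at 2 h, 6 h, 1 day and 1 week, and lower, 4.02%, 8%, 1.39% and 1.51%. Among 3 other receptors tested, Tlr5, the flagellin receptor, fell at 6 h (log2 change -0.69, adjusted p = 0.0024; -0.36 and not called with sham libraries 5 and 6 alone) and rose at 1 week (0.58, adjusted p = 0.0401). Tlr8 and Tlr11 did not reach the filter. Of 8 accessory and trafficking genes tested, Hsp90b1, the receptor chaperone gp96, rose at 1 day from 30.6 ± 2.71 to 54.1 ± 5.44 RPKM (SD, n = 6 each; log2 change 0.80, adjusted p = 5.32e-06) after falling at 6 h (-0.35, adjusted p = 0.0303). Unc93b1, which carries the nucleic acid receptors to endosomes, rose at 6 h (0.77, adjusted p = 0.0297), and Lgmn, a protease that processes them, fell at 2 h (-0.31, adjusted p = 0.0348); the other 5 were called at no time, and with sham libraries 5 and 6 alone none of the 8 was called at 6 h. Unc93b1 then turned to -0.19 (adjusted p = 0.962), and Hsp90b1 was at -0.15.

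Of 4 other adaptors tested, none was called at 2 h. At 6 h Ticam1, the TRIF adaptor of Tlr3 and Tlr4, rose from 5.63 ± 3.22 to 13 ± 3.62 RPKM (SD, n = 6 each; log2 change 1.20, adjusted p = 0.0069). Tirap, which bridges Tlr2 and Tlr4 to Myd88, fell (-0.40, adjusted p = 0.0404), as did Pik3ap1 (-0.29, adjusted p = 0.048). With sham libraries 5 and 6 alone, none of the 4 was called, and the log2 changes were 0.89 for Ticam1, -0.32 for Tirap and -0.08 for Pik3ap1. None was called at 1 day or 1 week.

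Below the adaptors, 2 of 12 kinases and ubiquitin ligases rose at 2 h: Map3k8, the kinase Tpl2 (log2 change 0.80, adjusted p = 0.0002), and Irak2, a partner of Myd88 (0.38, adjusted p = 0.0278). Of the TAK1-binding proteins, Tab1 rose (0.66, adjusted p = 0.0218) and Tab2 fell (-0.63, adjusted p = 0.0031) at 6 h with all shams, and Irak1 rose at 1 week (0.69, adjusted p = 0.0314; named after its value was seen). Of 12 transcription factors, Nfkb2 rose at 2 h from 6.46 ± 5.76 to 38.5 ± 11.5 RPKM (SD, n = 6 each; log2 change 2.61, adjusted p = 2.12e-06), Relb rose by 1.90 (adjusted p = 0.0007) and Nfkb1 by 0.44 (adjusted p = 0.0190; also named after its value was seen). With all shams Rela (0.78, adjusted p = 0.0027) and Irf7 (1.31, adjusted p = 0.0195) rose at 6 h, and Irf7, which serves Tlr7 and Tlr9, also rose at 1 day (1.90, adjusted p = 0.0023). With sham libraries 5 and 6 alone, neither list held a call at 6 h, and the log2 changes were 0.59 for Tab1, -0.12 for Tab2, 0.16 for Rela and 1.76 for Irf7.

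Among 11 negative regulators, Tnip1 rose (log2 change 0.67, adjusted p = 4.91e-05) and Inpp5d, the phosphatase SHIP1, fell (-0.45, adjusted p = 0.0072) at 2 h. Zc3h12a, an RNase, rose at 6 h (1.61, adjusted p = 7.54e-05; 0.91 and not called with sham libraries 5 and 6 alone, adjusted p = 0.388), and Trim30a rose at 1 day (0.97, adjusted p = 1.37e-09). Of 15 targets of the pathway tested, 7 rose at 2 h (4.6% of all genes did), 9 at 6 h (12.9%), 6 at 1 day (2.9%) and 1 at 1 week (2.03%), and none fell. Cxcl10, a chemokine, went from 4.75 ± 4.56 to 248 ± 95.5 RPKM at 2 h (SD, n = 6 each; log2 change 5.76, adjusted p = 4.21e-14), and the adhesion molecule Icam1 from 11.9 ± 5.61 to 39.2 ± 5.22 RPKM (1.74, adjusted p = 1.66e-10). Median changes of the target list were 0.69, 0.79, 0.40 and 0.22 at the 4 times, beside -0.01, 0.08, 0 and 0.05 over all genes, and with sham libraries 5 and 6 alone 5 of the 15 rose at 6 h, where 1.56% of all genes did.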

How the data were processed

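Bulk RNA-seq of 48 libraries was used, 6 in each of 8 groups. Per the submitters' processing notes, the tools named are STAR 2.6.1d, featureCounts 1.5.1, FastQC 0.11.8 and bcl2fastq 2.20.0, and the builds GRCm38 and mm10; a QIAseq FX single cell RNA library kit made the libraries, per the labels' protocols. The authors deposited 1 table of RPKM. Tested on the file, each value is a whole number of reads scaled by the gene span and a library total, but that total was the right library's in only 2.05% of values. Whole reads were recovered for 100% of 719081 values above 0 (tolerance 0.001 reads), and RPKM was recomputed with each library's own total. This moves single values (deposited over recomputed, 5th to 95th percentile, 0.436 to 3.11). Mitochondrial genes were kept.

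Group means of log2(RPKM + 1) in the 8 groups were compared with limma 3.58.1 (R 4.3.3), with 40 residual degrees of freedom and moderation by trend, robust to outliers, on 10132 genes with at least 1 RPKM in at least 6 libraries, and Benjamini-Hochberg adjustment. The fit was checked on simulated data, which held changes only at 2 h and no split among sham libraries. A count model was not used, since the deposited unit is RPKM; limma voom on the recovered reads was an alternative. Intervals are the change plus or minus its SE times the t quantile. Exon lengths came from GENCODE M21, which matched 99.2% of genes. Promoters came from RefSeq.

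The 10 genes, the pathway lists and the sham split at 6 h were chosen with earlier results of these data known. Other pathway genes are named by smallest adjusted p, up to 4 a list; Nfkb1, Irak1 and the markers Csf3r, Aldoc and Plac8 were added after their values were seen. Nearest genes are those with the smallest root mean square difference, among 2643 tested genes with a mean of at least 5 RPKM in their highest group and no predicted, small RNA or mitochondrial symbol, for Tlr2, Cd14 and Myd88. Each library is 1 animal, as the design text states. Alternatives were another pseudocount (0.1), other filters, voom, median-ratio scaling, the deposited RPKM, a replicate block, leaving out 3 shallow libraries, totals without mitochondrial genes, sham libraries 5 and 6 alone at 6 h, a fit per time, and exon length (this last chosen after seeing the data). Replicate numbers were not taken as pairs in the main fit: of 24 same-numbered pairs, 2 had a correlation of deviations over 0.1, both at 2 h.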

Additional observations from a re-analysis of the deposited data

Results flagged for a closer look

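In 3 of 80 groups of 6 animals, 1 library lay far from the other 5 by Dixon's ratio, a count that chance gives for about 1 in 20 groups. Tlr3 was 0.740 RPKM in sham library 6 at 1 day, where the other 5 were 1.45 to 1.89 RPKM; the value rests on 2 reads in the shallowest library. Cd14 was 283 RPKM in irradiated library 2 at 1 week, against 189 to 216 RPKM in the other 5, and it was still below the lowest sham value of 367 RPKM. Ly96 was 1.33 RPKM in sham library 3 at 2 h, with 42 reads, against 0.405 to 0.639 RPKM in the other 5.

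The irradiation effect differed between neighbouring times for 3 genes by the test of the difference in limma. From 2 h to 6 h it changed by -1.65 for Tlr1 (adjusted p = 4.79e-06) and by -1.92 for Tlr2 (adjusted p = 1.8e-07). For Tlr9 it changed by -1.51 from 6 h to 1 day (adjusted p = 0.0275) and by 1.40 from 1 day to 1 week (adjusted p = 0.0385). The first Tlr9 difference was not called with sham libraries 5 and 6 as the only 6 h shams. Neither Tlr9 difference was called with no filter on low values.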

How the results depend on the processing

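The called rises of Tlr1 and Tlr2 at 2 h kept their direction under all 11 alternatives and their call under all but the RPKM as deposited. With the deposited values none of the 10 genes was called (52, 64, 39 and 11 of all genes tested were, at the 4 times): 0 higher and 0 lower at 2 h, 6 h, 1 day and 1 week, 0 lower from 2 h to 6 h and from 6 h to 1 day, and 0 higher from 1 day to 1 week; there the values carry the totals of other libraries. Called lower at 2 h (2 genes in the main result) were 1 with median-ratio scaling, 1 without mitochondrial reads, 0 without the 3 shallow libraries and 0 with the 12 libraries of the time alone. Called higher at 6 h (2 genes) was 1 with no filter, with median-ratio scaling, without the shallow libraries, without mitochondrial reads and with the 12 libraries alone. With sham libraries 5 and 6 as the only 6 h shams, 0 were higher and 0 lower at 6 h and 0 lower from 6 h to 1 day, and Cd14 turned to -0.33. At 1 day 1 was higher with median-ratio scaling, and 0 lower with the 12 libraries alone. At 1 week, 0 were higher and 0 lower with no filter, and 2 higher with the 12 libraries alone (Tlr7 joined Tlr13). From 6 h to 1 day 1 gene, Tlr3, was higher with a pseudocount of 0.1, with the filter of 10 reads and with median-ratio scaling, and 0 were lower with no filter. From 1 day to 1 week 0 were higher with no filter. The causes of these shifts were not tested. Over all genes tested, not the 10, leaving out mitochondrial reads moved the share of higher calls in the difference from 2 h to 6 h from 59.9% to 47.5%.

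With the replicate number as a block, 1 gene (Tlr3, log2 change 0.90, adjusted p = 0.0477) was higher from 6 h to 1 day instead of 0, and no other call among the 10 genes changed. Over all times, 7 of 24 correlated best with their own number, with correlations of -0.11 to 0.14. At 2 h, numbers 1, 3, 5 and 6 correlated best with their own number, with correlations of 0.04 to 0.14. Tlr7 at 2 h was lowest in libraries 1 and 2 of both arms (15.2 and 11.8 RPKM in sham, 11.3 and 8.97 RPKM in irradiated animals). What the numbers share at 2 h was not tested.

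Depth limits Ly96 and Tlr3 most, with 1791 and 5115 reads over all 48 libraries. The pseudocount of 1 understates changes of genes at a low RPKM whatever their reads, here Tlr4, Ly96 and Tlr3; the Tlr4 change at 2 h was -0.23 with it and -0.45 with 0.1.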
